A study of Rattus norvegicus with 7 samples.

Results

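The genes described here encode proteins of central nervous system myelin, with a pair of transcription factors of the cells that make it. They were chosen by symbol as Mbp, Mobp, Mal, Cnp, Mag, Mog, Cldn11, Olig1 and Olig2, which are 9 of the 16514 symbols listed in at least 1 of the 2 tables. The first 7 were found in both tables. Olig1 and Olig2 were found in the hypothalamus table, and their level in hippocampus was not analysed here. Transcript levels were measured by RNA sequencing of hippocampus (4 libraries) and hypothalamus (3 libraries) from male Sprague Dawley rats. The animals were 2 months old at the start and were fed for 6 weeks with DHA, a long polyunsaturated fatty acid of brain membranes. All 7 libraries come from DHA-fed rats and no chow library was analysed here, so the comparison is between the tissues and among replicates, and no effect of the diet was estimated. The labels do not say whether a hippocampus and a hypothalamus library with the same number came from 1 animal.

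Myelin is a spiral of membrane that oligodendrocytes wrap around axons, and it speeds the conduction of nerve impulses. In compact myelin the cytoplasm is squeezed out between layers held together by basic proteins, while the inner tongue, the paranodal loops and the outer surface keep their own proteins. Oligodendrocytes arise from precursor cells under transcription factors of the Olig and Sox families, and fibre tracts hold more of them than layers of neuronal cell bodies.

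Promoter sequences are shown for 4 of the genes, because Mobp and the higher Cnp locus differed between the tissues in opposite directions (Cnp overlapped with its loci summed) and Mag and Mal differed between hippocampus libraries in opposite directions. They are the 250 bases before the RefSeq start of each gene in the rat assembly GRCr8, which is not the build of the deposited files, and 7 of the 9 genes had an entry. The Mobp sequence is chr8:128746982-128747231 on the + strand, and that of Cnp is chr10:86011254-86011503 on the + strand. The Mag sequence is chr1:95291045-95291294 on the - strand, and that of Mal is chr3:135341424-135341673 on the - strand. Capitals mark ACAAAG, or CTTTGT as its other strand, letters found at the core of many binding sites of SOX and TCF proteins.
Mobp: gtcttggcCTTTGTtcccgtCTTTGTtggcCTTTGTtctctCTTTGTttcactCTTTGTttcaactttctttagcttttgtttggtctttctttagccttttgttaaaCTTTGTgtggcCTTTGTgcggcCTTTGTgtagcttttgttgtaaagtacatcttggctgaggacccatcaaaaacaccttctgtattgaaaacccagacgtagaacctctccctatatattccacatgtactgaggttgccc
Cnp: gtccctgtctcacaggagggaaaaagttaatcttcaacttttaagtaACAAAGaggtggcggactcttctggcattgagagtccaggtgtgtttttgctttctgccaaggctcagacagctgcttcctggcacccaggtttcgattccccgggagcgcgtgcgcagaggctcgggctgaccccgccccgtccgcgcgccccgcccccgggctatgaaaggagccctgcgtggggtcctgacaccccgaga
Mag: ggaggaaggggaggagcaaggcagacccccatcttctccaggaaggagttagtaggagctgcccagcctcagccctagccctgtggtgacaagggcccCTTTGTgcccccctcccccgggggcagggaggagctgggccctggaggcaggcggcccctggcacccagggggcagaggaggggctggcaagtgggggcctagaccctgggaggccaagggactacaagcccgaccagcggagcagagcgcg
Mal: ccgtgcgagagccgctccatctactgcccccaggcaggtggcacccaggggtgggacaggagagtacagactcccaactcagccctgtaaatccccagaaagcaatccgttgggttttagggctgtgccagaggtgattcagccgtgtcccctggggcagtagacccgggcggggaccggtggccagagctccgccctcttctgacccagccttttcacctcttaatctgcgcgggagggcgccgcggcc
Mobp held 8 matches in this window, Cnp and Mag 1 each, and Mal none. Of 33469 promoter entries of the same length, 16.3% held at least 1 match and 2 held at least 8. Mobp also differed in base composition, with 41.6% G or C against 60.4% in Cnp, 64.8% in Mal and 70% in Mag. The E-box letters CANNTG, which read the same on both strands and do not overlap the other motif, occurred once each in Mobp, Mag and Mal and 2 times in Cnp. They occurred in 65.5% of all entries. A match is a run of letters and not a measured binding site.

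Levels are FPKM as deposited by the authors, a unit that divides fragments by transcript length and library size, so that different genes can be set side by side. The deposited values summed to between 370020 and 391349 in hippocampus libraries and to between 443335 and 471484 in hypothalamus libraries. The labelled tissues were checked with genes chosen after their values were seen, given as a description. Neurod6, a transcription factor gene of cortical and hippocampal neurons, read 59.0 to 77.0 FPKM in hippocampus at its higher locus and 0.546 to 1.13 in hypothalamus. Avp, which encodes vasopressin, read 2818 to 3712 FPKM in hypothalamus and at most 2.07 in hippocampus. Replicate 1 stood apart at some symbols listed at 2 loci in a table, such as Cnp and Gjb1 in hypothalamus and Tnr in hippocampus. Cnp is the only myelin gene with 2 loci. At its second hippocampal locus replicate 4 stood apart, at 32.7 against 0.495 to 2.80 FPKM. Hippocampus replicate 2 stood apart for the choroid plexus gene Ttr, at 31.9 FPKM against 1967 to 5771 FPKM in the other hippocampus libraries. In bulk tissue, fewer cells of a type and less RNA per cell cannot be told apart.

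Mbp encodes myelin basic protein, which holds the cytoplasmic faces of the myelin membrane together. It was the most abundant of the genes and ranked number 7 by mean FPKM among all symbols of each table. Hippocampus replicates 1 to 4 read 1905, 1962, 1739 and 1779 FPKM, and hypothalamus replicates 1 to 3 read 3089, 4090 and 4169 FPKM. Every hypothalamus library was above every hippocampus library, and the hippocampus libraries lay close together, at 1846 ± 104 FPKM (SD, n = 4) against 3783 ± 602 FPKM (SD, n = 3) in hypothalamus.

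Mobp, which encodes a small basic protein of compact myelin, followed the same pattern with a larger difference. Hippocampus replicates read 445, 512, 414 and 435 FPKM, and hypothalamus replicates read 979, 1341 and 1456 FPKM. The tissues did not overlap, and the lowest hypothalamus library lay above the highest hippocampus library. Mobp ranked number 80 of 16153 symbols in hippocampus and number 24 of 16163 in hypothalamus.

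Mal encodes a membrane proteolipid of lipid rafts that takes part in sorting proteins to myelin. Its levels overlapped, with 105, 139, 120 and 175 FPKM in hippocampus and 144, 118 and 135 FPKM in hypothalamus. All hypothalamus libraries lay inside the range of the hippocampus libraries.

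Cnp encodes a cyclic nucleotide phosphodiesterase that lies in the cytoplasmic channels of non-compact myelin. At its higher locus, hippocampus replicates read 374, 421, 409 and 317 FPKM and hypothalamus replicates read 281, 276 and 247 FPKM. Every hippocampus library was above every hypothalamus library at this locus. The second Cnp locus read 0.495, 2.80, 1.96 and 32.7 FPKM in hippocampus. In hypothalamus it read 1.03 FPKM in replicate 1 and 236 and 195 FPKM in replicates 2 and 3, close to the level of the first locus. With both loci summed, hypothalamus replicates came to 282, 512 and 442 FPKM and hippocampus replicates to 374, 424, 411 and 350 FPKM, so the tissues overlapped. The lower level of Cnp in hypothalamus therefore held for the higher locus and not for the sum. The second locus lies next to Dnajc7 and Acly in the row order of both tables, and the first lies next to Nkiras2 and Ttc25. Whether fragments were counted by strand is not given in the sources used here, and which locus holds the reads of Cnp could not be settled.

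Mag encodes a lectin-like adhesion protein on the inner myelin membrane, which faces the axon. It read 153, 109, 110 and 80.5 FPKM in hippocampus and 102, 169 and 166 FPKM in hypothalamus. The tissues overlapped, with hippocampus replicate 1 above hypothalamus replicate 1.

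Mog encodes an immunoglobulin-like protein of the outermost myelin surface. Hippocampus replicates read 88.2, 119, 110 and 130 FPKM, and hypothalamus replicates read 85.7, 84.1 and 73.1 FPKM. Every hippocampus library was above every hypothalamus library, although hippocampus replicate 1 exceeded the highest hypothalamus library by only a few FPKM as deposited.

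Cldn11 encodes a claudin that forms tight junctions between myelin layers. It read 206, 189, 201 and 329 FPKM in hippocampus and 296, 510 and 361 FPKM in hypothalamus. Hippocampus replicate 4 lay inside the range of the hypothalamus libraries, while the other hippocampus libraries were below all of them.

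Olig1 and Olig2 encode basic helix-loop-helix transcription factors of the oligodendrocyte lineage. In hypothalamus, Olig1 read 84.9, 92.2 and 107 FPKM and Olig2 read 19.2, 28.1 and 25.2 FPKM. Olig2 was the lowest of the 9 genes, at number 3386 of 16163 symbols, and Olig1 was at number 837. No library of Olig2 reached the lowest library of Olig1.

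**Figure D1:**
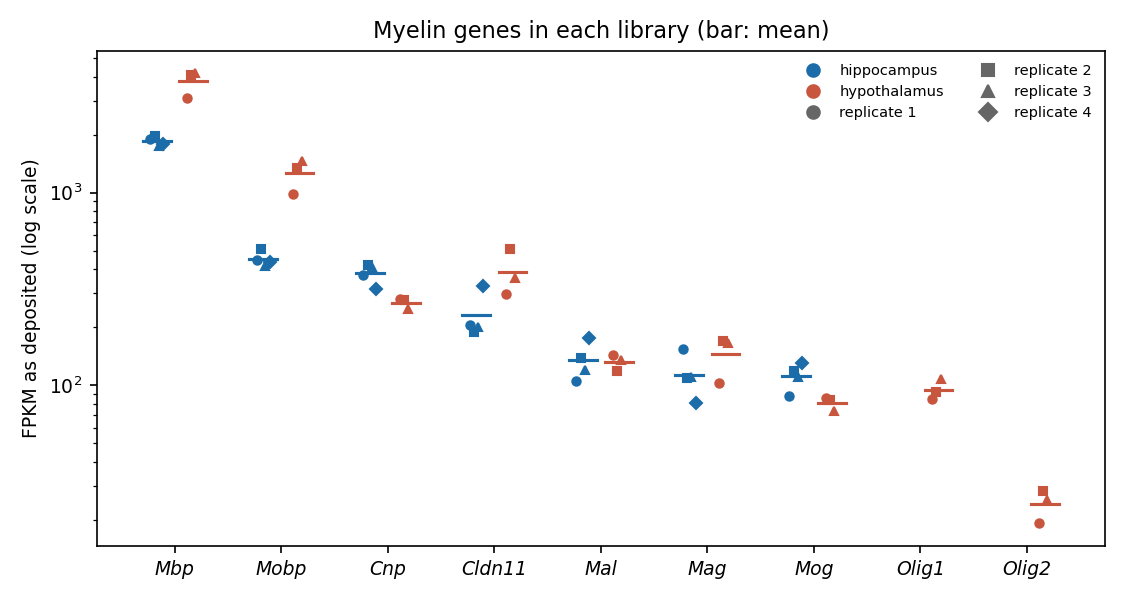
FPKM as deposited (log axis) of each myelin gene in every library, with hippocampus in blue, hypothalamus in red, marker shapes for replicates and bars for means; Cnp is its higher locus. Mbp and Mobp were higher in every hypothalamus library, Mog and the higher Cnp locus were higher in every hippocampus library, and Olig1 and Olig2 are shown for hypothalamus.

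The order of the levels, with Cnp at its higher locus, began with Mbp and Mobp in both tissues. In hippocampus it ran Mbp, Mobp, Cnp, Cldn11, Mal, Mag, Mog by mean FPKM. Mobp and Cnp overlapped in range there, as did Cnp with Cldn11, and Mal with Mag and Mog. In hypothalamus the order was Mbp, Mobp, Cldn11, Cnp, Mag, Mal, Olig1, Mog, Olig2. Mbp, Mobp and Cldn11 were separated from each other in every hypothalamus library. Cldn11 stood above the higher Cnp locus as well, since its lowest library read 296 FPKM and the highest Cnp library 281. With both loci summed, Cnp read 282 to 512 FPKM in hypothalamus and overlapped with Cldn11, at 296 to 510 FPKM. Mag and Mal overlapped there, as did Olig1 and Mog, while every Mal library was above every Olig1 library.

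To compare the tissues, each library was rescaled so that the symbols found in both tables summed to 1000000. Each tissue was quantified in a table of its own and how the tables were scaled is not known, so tissue and table cannot be told apart and no test was made across them. The label "called higher" is kept for genes whose libraries did not overlap between tissues and whose means of log2(rescaled FPKM + 1) were at least 2-fold apart. Of the 7 genes in both tables, Mobp alone was called higher in hypothalamus, where 13.4% of 10736 symbols were. None was called higher in hippocampus, where 14.5% of symbols were. Without the fold requirement, Mbp and Mobp lay higher in every hypothalamus library (24.4% of all symbols) and Mog and the higher Cnp locus lay higher in every hippocampus library (28.2% of all symbols). With loci summed Cnp overlapped, which leaves Mog alone, and 3 of 7 genes without overlap. With FPKM as deposited and the higher Cnp locus the same 4 genes were without overlap, where 35.2% of symbols were higher in every hypothalamus library and 19% in every hippocampus library. The 4 of 7 genes with no overlap stand beside 52.6% of all symbols, so separation of the tissues was about as frequent among the myelin genes as in general.

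The difference of Mobp, hypothalamus minus hippocampus, was 1.16 on the log2 scale, with SDs among replicates of 0.11 in hippocampus (n = 4) and 0.27 in hypothalamus (n = 3). That of Mbp was 0.72, with SDs of 0.07 and 0.22. Mog differed by -0.75 (SDs 0.22 and 0.17) and the higher Cnp locus by -0.80 (SDs 0.18 and 0.15). All 4 differences exceeded the larger SD of the gene. With loci summed, the difference of Cnp was -0.22. Cldn11 differed by 0.45, Mal by -0.30 and Mag by 0.07, and each of these 3 had libraries of the tissues interleaved. Over the 7 genes the median difference was 0.07, beside -0.05 over all 10736 symbols.

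**Figure D2:**
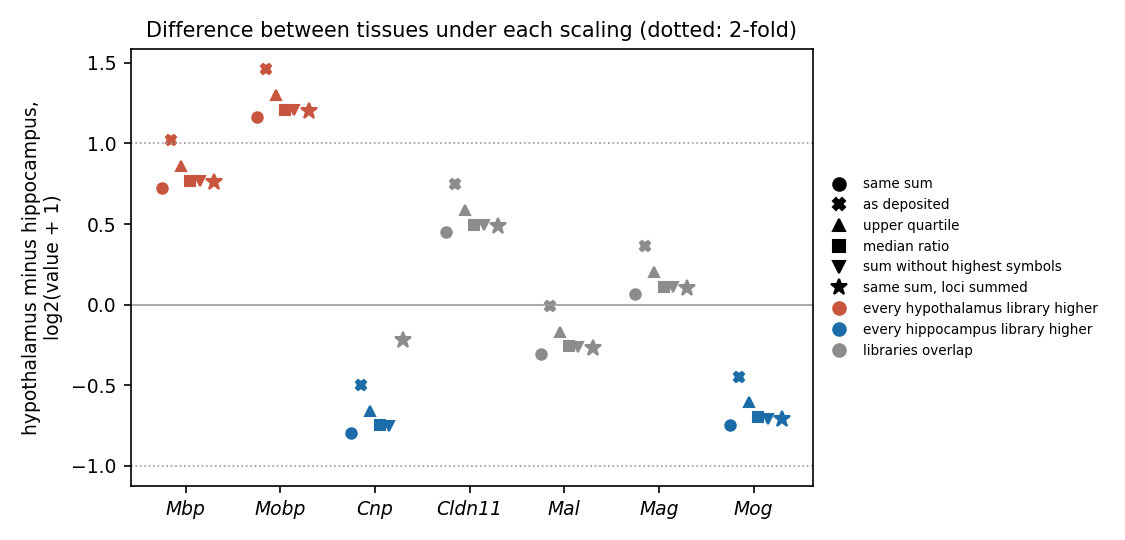
Difference between tissues (hypothalamus minus hippocampus, log2(value + 1)) of each gene under 5 scalings and with loci summed, with colours for whether the libraries of the tissues overlapped. Mobp lay above the 2-fold line under every scaling shown, Mbp did so for FPKM as deposited alone at 1.02, and Cnp overlapped once its loci were summed.

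The summed level of the genes was higher in hypothalamus through Mbp and Mobp. The 7 genes summed to 0.907% to 0.969% of the FPKM of shared symbols in hippocampus and to 1.19% to 1.57% in hypothalamus, without overlap. The means were 0.940% ± 0.027 (SD, n = 4) and 1.41% ± 0.20 (SD, n = 3). Without Mbp and Mobp, the other 5 genes summed to 0.269% to 0.295% in hippocampus and to 0.216% to 0.276% in hypothalamus, which overlapped. Most of this sum is Mbp, which made up 56.5% ± 1.40 of it in hippocampus and 62.4% ± 0.59 in hypothalamus. Mobp made up 13.8% ± 0.70 and 20.7% ± 1.22, and the shares of Mal, Mog and the higher Cnp locus were lower in every hypothalamus library, while those of Mag and Cldn11 overlapped. The mean log2 level of the 7 genes, which weights them equally, overlapped between tissues (9.59 to 9.67 in hippocampus, 9.56 to 9.85 in hypothalamus).

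Ratios of genes within a library do not depend on how the library was scaled. Mobp stood at 23.4%, 26.1%, 23.8% and 24.4% of Mbp in hippocampus and at 31.7%, 32.8% and 34.9% in hypothalamus. The 2 genes that were higher in hypothalamus thus differed between tissues by unequal amounts, since the lowest hypothalamic share lay above the highest hippocampal one. Mog stood at 4.63%, 6.04%, 6.34% and 7.28% of Mbp in hippocampus and at 2.77%, 2.06% and 1.75% in hypothalamus. Mag stood at 4.52% to 8.04% in hippocampus and at 3.31% to 4.14% in hypothalamus, which also did not overlap. Mal was at 5.51% to 9.84% against 2.88% to 4.65%, again with no overlap. Relative to Mbp, then, Mog, Mag and Mal were each lower in every hypothalamus library. Cnp with both loci summed was at 19.6% to 23.6% of Mbp in hippocampus and at 9.14% to 12.5% in hypothalamus, so that relative to Mbp its lower position in hypothalamus held for the sum as well. Cldn11 overlapped, at 9.64% to 18.5% against 8.66% to 12.5%.

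Of the 21 ratios between pairs of the 7 genes, 13 (61.9%) had no overlap between tissues. Among 41765230 pairs of symbols with at least 1 FPKM in every library, 53.6% had none. With loci summed 12 of the 21 were without overlap.

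**Figure D3:**
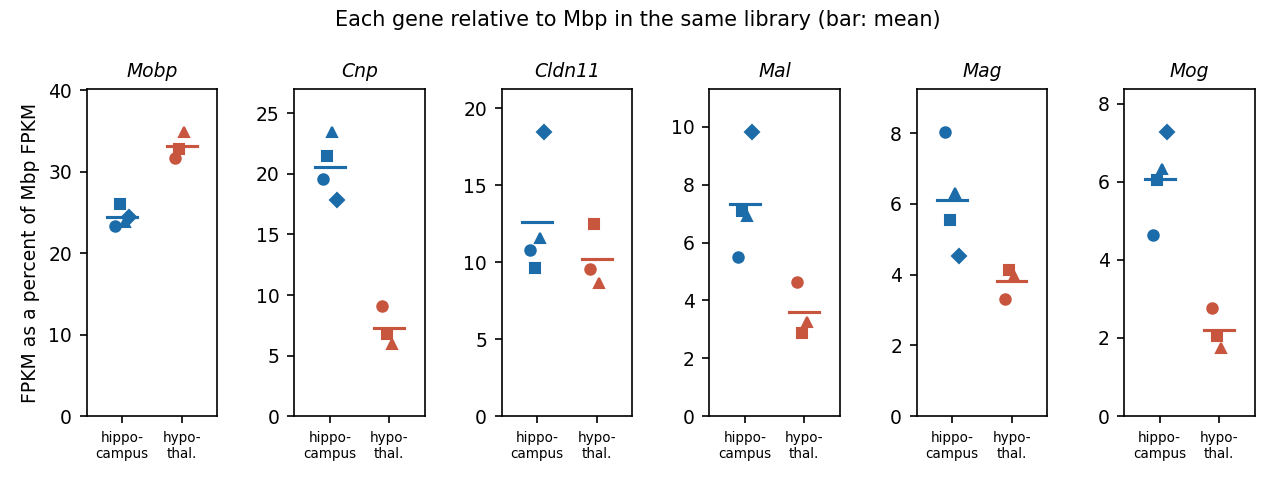
FPKM of each gene as a percent of Mbp FPKM in the same library, by tissue, with circles, squares, triangles and diamonds for replicates 1 to 4 and bars for means; Cnp is its higher locus and each panel has its own axis from 0. Mobp was higher relative to Mbp in every hypothalamus library, Cnp, Mal, Mag and Mog were lower, and Cldn11 overlapped.

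Replicates of a tissue differed in which myelin genes were high. The SD of log2(FPKM + 1) among hippocampus libraries ran from 0.08 for Mbp to 0.38 for Mag, with a median of 0.24 beside 0.24 over 11197 hippocampal loci. The median of the myelin genes was 0.15 without hippocampus replicate 4, beside 0.18 over all loci. Among hypothalamus libraries it ran from 0.10 to 0.41 over 9 genes, with a median of 0.24 beside 0.25 over 11483 loci. Mbp and Mobp were the steadiest in hippocampus.

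In hippocampus, Mag was highest in replicate 1 and lowest in replicate 4, at 153 against 80.5 FPKM. Mog and Mal were lowest in replicate 1 and highest in replicate 4, with 88.2 against 130 FPKM for Mog and 105 against 175 for Mal. Cldn11 was highest in replicate 4 as well, and Cnp was lowest there. The myelin genes thus had no common order among these libraries. Of the 6 genes with a single locus, 3 were highest in replicate 4 (32.7% of symbols) and 1 lowest there (37.8%), while 2 were lowest in replicate 1 (35.7%) and 1 highest (30.3%). Over 9040 hippocampal symbols with a single locus, 22.3% had the order of Mag and 22% had that of Mog and Mal, so both orders were common. Among 39 single-locus genes of oligodendrocyte lists, 13 had the order of Mag, among them Sox10, Gal3st1 and Hapln2, and 9 had that of Mog and Mal, among them Ermn, Aspa and Opalin. Neuron genes were read beside them. Tubb3, a neuronal tubulin, read 169, 95.4, 105 and 67.6 FPKM and Rbfox3, a neuronal nuclear protein gene, read 128, 78.6, 69.7 and 57.9 FPKM, both highest in replicate 1 and lowest in replicate 4, as was Nefm at its higher locus. Syt1, a synaptic vesicle gene, went the opposite way, at 446, 584, 453 and 825 FPKM at its higher locus. Stmn2 and Nefl were likewise lowest in replicate 1 and highest in replicate 4 at their higher loci, and Snap25 was highest in replicate 4 and lowest in replicate 3. The 7 neuron genes thus had no common order either. The part of such library differences in the order of the myelin genes was not tested.

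In hypothalamus, 6 of 8 single-locus genes were lowest in replicate 1, namely Mbp, Mag, Mobp, Cldn11, Olig1 and Olig2, where 35.7% of 9734 symbols were. Mog and Mal were highest in replicate 1, where 44.2% of symbols were. Of 40 single-locus genes of the oligodendrocyte lists, 16 were lowest and 17 highest in replicate 1, both near those backgrounds. Without replicate 1 the median SD of the 9 genes among hypothalamus libraries was 0.11 in place of 0.24, beside 0.13 in place of 0.25 over all loci.

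**Figure D4:**
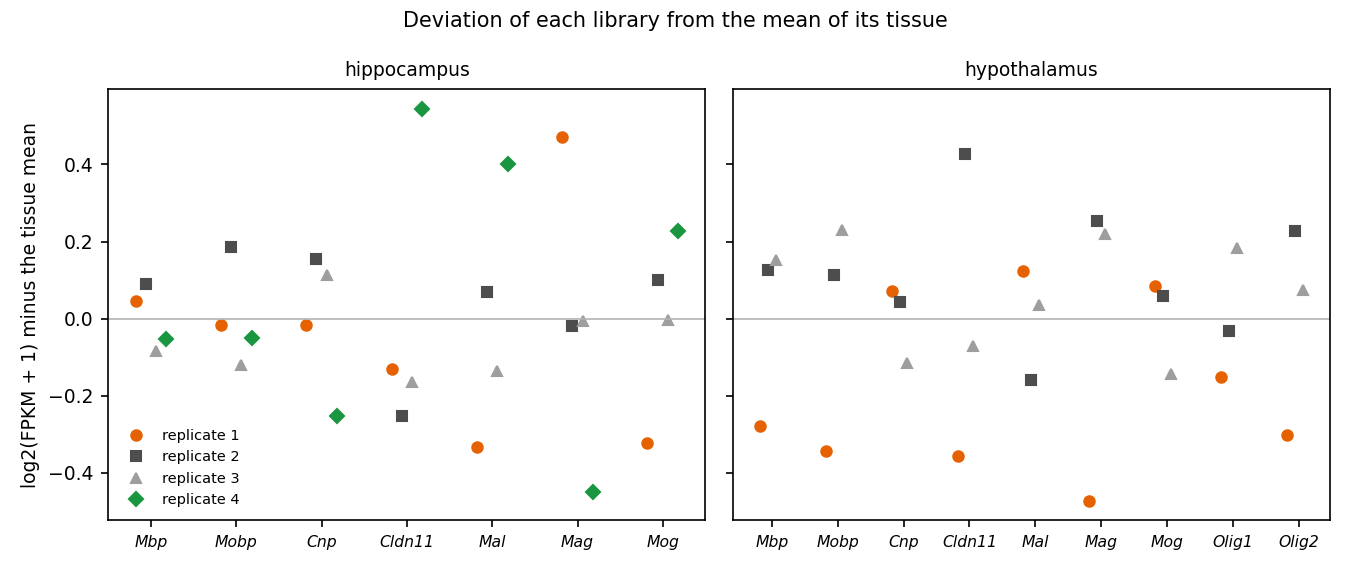
Deviation of each library from the mean of its tissue in log2(FPKM + 1), by gene, with hippocampus on the left, hypothalamus on the right and colours and shapes for replicates. Hippocampus replicates 1 and 4 lie on opposite sides for Mag against Mal and Mog, and hypothalamus replicate 1 lies below 0 for 6 of the 9 genes.

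Further genes of the oligodendrocyte and of myelinated axons were taken from lists by role. Over the 5 oligodendrocyte lists, 44 genes could be compared, of which 6 were called higher in hypothalamus (background 13.4%) and 3 in hippocampus (background 14.5%). Without the fold requirement, 14 were higher in every hypothalamus library (24.4% of all symbols) and 8 in every hippocampus library (28.2%). The libraries overlapped for the other 22, while 52.6% of all symbols had no overlap. The median difference of the 44 genes was 0.34 on the log2 scale, beside -0.05 for all symbols.

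Among 11 myelin membrane and junction genes none was called. Omg, which encodes a myelin glycoprotein, was higher in every hypothalamus library (127, 119 and 118 FPKM, against 50.8 to 57.6 FPKM). Tspan2 and Tmem63a were higher in every hippocampus library after rescaling and overlapped in FPKM as deposited.

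Of 7 enzymes of myelin lipids, Fa2h was called higher in hypothalamus. It encodes the hydroxylase that makes the hydroxylated fatty acids of myelin galactolipids, and read 11.1, 11.1, 11.9 and 10.5 FPKM in hippocampus against 19.5, 41.2 and 33.6 FPKM in hypothalamus. Its difference of 1.11 was close to that of Mobp. Hmgcs1, a cholesterol synthesis enzyme gene that many cell types express, was called higher in hippocampus, with a difference of -1.04, and overlapped in FPKM as deposited. Ugt8, which encodes the enzyme that makes galactocerebroside, overlapped.

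Among 6 transcription factor genes, Tcf7l2 was called higher in hypothalamus, at 9.03 to 17.0 FPKM against 2.93 to 4.94 in hippocampus. It also acts in neurons. Myrf, which switches on myelin genes, was higher in every hypothalamus library, at 36.8 to 44.1 against 15.6 to 21.8 FPKM. Sox10, a factor required for oligodendrocyte differentiation, read 13.2, 6.74, 7.98 and 6.47 FPKM in hippocampus and 13.3, 27.3 and 29.3 in hypothalamus. Replicate 1 of the tissues was at nearly the same level, and the libraries overlapped in rescaled values. Of the 6, 2 were higher in every hypothalamus library (24.4% of all symbols) and none in every hippocampus library (28.2%). The list's mean log2 level had no overlap (4.15 to 4.65 in hippocampus, 4.77 to 5.35 in hypothalamus).

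Of 12 genes of mature oligodendrocytes, Apod, Ppp1r14a and Tf were called higher in hypothalamus and Pex5l in hippocampus. Apod, which encodes a lipid-carrying apolipoprotein also made by other brain cells, read 73.8 to 136 FPKM in hippocampus and 515 to 835 FPKM in hypothalamus. Ppp1r14a, a phosphatase inhibitor gene, read 18.0 to 30.3 against 95.1 to 129 FPKM. Tf passed the filter on low values through hypothalamus alone, so its call, which also counts among the 6 of 44 above, is no support for a difference. Tf, which encodes transferrin, read 533, 485 and 329 FPKM at 1 of its 2 hypothalamic loci, at most 0.422 at the other, and at most 1.46 FPKM at its single hippocampal locus. Which hypothalamic locus matches the hippocampal one was not settled, so its difference may set different loci against each other. Enpp2, which choroid plexus also expresses, read 334, 92.5, 758 and 548 FPKM in hippocampus, lowest in the library where Ttr was low. The mean log2 level of the list differed by 0.91 with both genes and by 0.44 without Tf and Enpp2, an alternative chosen after seeing the data, and it had no overlap either way.

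Among 8 precursor and premyelinating genes, Enpp6 was called higher in hypothalamus and Tnr in hippocampus. Enpp6, a marker of newly forming oligodendrocytes, read 2.07 to 2.60 FPKM in hippocampus and 4.13, 16.1 and 6.94 FPKM in hypothalamus. Tnr, a matrix glycoprotein gene that some neurons also express, read 7.09 to 10.9 against 3.72 to 4.43 FPKM and has a second hippocampal locus at 0, 10.2, 5.18 and 15.5 FPKM. Pdgfra, the growth factor receptor that marks precursors, overlapped with a difference of 0.03.

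Axonal partners of myelin were mostly higher in hippocampus. Of 7 genes at nodes and paranodes, 4 were called higher in hippocampus (background 14.5%) and none in hypothalamus (background 13.4%). These were Cntnap1, which anchors the paranodal loops, the sodium channel gene Scn8a and the potassium channel genes Kcna1 and Kcna2. Cntnap1 read 86.5, 68.0, 72.8 and 56.0 FPKM in hippocampus and 30.7, 38.1 and 44.5 FPKM in hypothalamus. These genes are neuronal and are also expressed away from myelin. Nfasc and Cntn2, which take part in the same junctions, overlapped with differences of -0.04 and 0.12.

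Mag and Omg proteins inhibit axon growth through a receptor complex on neurons. The receptor gene Rtn4r read 26.2 to 33.4 FPKM in hippocampus and 7.48 to 9.53 FPKM in hypothalamus, and the co-receptor gene Lingo1 read 62.1 to 95.7 against 23.7 to 44.8 FPKM. Both were called higher in hippocampus. The related Rtn4rl2 passed the filter on low values through hippocampus alone, so its call is no support for a difference. Rtn4 itself, which encodes Nogo, has 2 loci in each tissue and overlapped at the higher ones and with loci summed. Its higher hippocampal locus ranged from 48.9 FPKM in replicate 1 to 587 FPKM in replicate 4, and the other from 101 to 150 FPKM. In hypothalamus the higher locus read 155 to 253 FPKM and the other 3.10 to 3.90 FPKM. Whether the higher locus is the same one in both tissues was not settled.

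**Figure D5:**
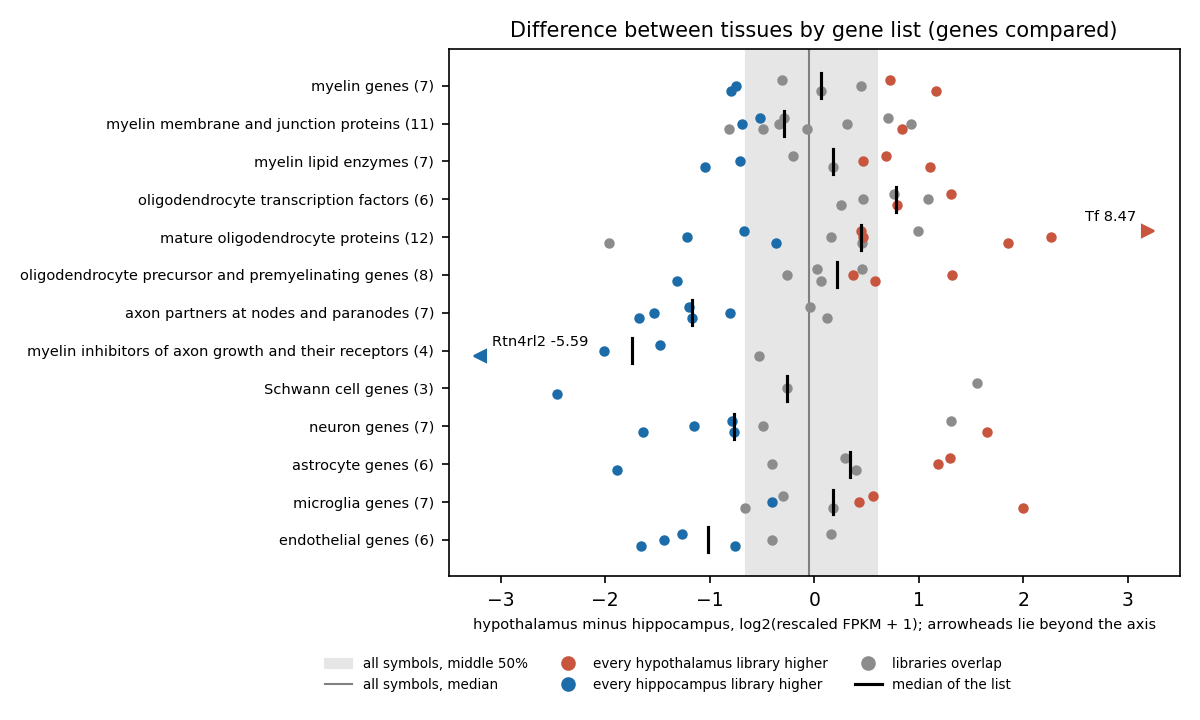
Difference between tissues (hypothalamus minus hippocampus, log2(rescaled FPKM + 1)) of every compared gene by list, coloured by whether the libraries of the tissues overlapped, with the list's median as a black bar and the middle 50% of all symbols in grey. The myelin genes spread from -0.80 to 1.16 around a median near that of all symbols, and the axon partner list has its median at -1.17.

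Genes of other cells were read beside these results. Of the Schwann cell genes, Prx stayed at or below 0.498 FPKM in every library. Pmp22, which other cells also express, read 27.8 to 42.6 FPKM over both tissues and overlapped. Of 7 neuron genes, 2 were called higher in hippocampus (background 14.5%) and 1 in hypothalamus (background 13.4%). The list's mean log2 level ran from 8.36 to 8.76 in hypothalamus and from 8.99 to 9.21 in hippocampus replicates 2 to 4. It was 8.0 in hippocampus replicate 1, where Nefl read 0.174 FPKM at the locus used, against 174 to 288 FPKM in the other hippocampus libraries. The difference of the list level was -0.27 with all libraries, -0.55 without hippocampus replicate 1 and -0.68 with loci summed. Of 6 astrocyte genes, 2 were called higher in hypothalamus and 1 in hippocampus, beside the same backgrounds of 13.4% and 14.5%, with list levels of 8.51 to 8.60 and 8.49 to 8.91. The part of these cells in the differences of the myelin genes was not tested.

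Over the 7 libraries the genes, with Cnp at its higher locus, had little common profile. The correlation (Pearson r of log2 levels) of a gene with the mean of the other 6 was highest for Cldn11, at 0.35. It ranged down to -0.71 for Mog and -0.79 for the higher Cnp locus. With the Cnp loci summed it was not computed. The summed Cnp, rescaled, was lowest in hypothalamus replicate 1 (664) and highest in hypothalamus replicate 2 (1192). By the rule set for likeness, the 8 single-locus genes most like the mean profile, out of 5666, were Tab2, Hsdl2, Kat6a, Yy1, Scrg1, Atp2b4, Rbmx and Gtf2ird1. Their r over 7 libraries ran from 0.95 for Tab2 to 0.87 for Gtf2ird1, and from 0.84 to 0.96 with the tissue means removed. Scrg1 read 18.0, 24.3, 20.8 and 26.3 FPKM in hippocampus and 17.9, 51.2 and 40.4 FPKM in hypothalamus. The profile these genes follow is low in hypothalamus replicate 1 and high in hypothalamus replicate 2, and the 7 points share their libraries and scaling. None of the 8 is on the oligodendrocyte lists.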

How the data were processed

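RNA was measured in 4 libraries of hippocampus and 3 of hypothalamus from DHA-fed rats. Poly-A selection and random-primed cDNA synthesis are stated per the labels. The authors deposited FPKM in 1 table per tissue; the submitters' processing notes name TopHat, Bowtie, Cufflinks and Cuffdiff and the build rn5, with no versions, roles or strand setting. Rows are loci named with a symbol, and every value is followed by a status word, per the file headers. Any locus lacking OK in 1 or more libraries was dropped (86 in the hippocampus table, 24 in the hypothalamus table). Where a symbol had more than 1 locus, the one with the highest mean represents it.

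Values were compared as log2(FPKM + 1), which understates the difference of low genes. Across tissues, libraries were rescaled to a sum of 1000000 over the 15805 shared symbols, and a symbol entered if its mean reached 1 FPKM in either tissue. No test was run across tables. The depth of the libraries is unknown from FPKM, so no counting interval was computed. Replicates are separate samples in the labels, which do not say that each is a separate animal. The myelin genes and lists were chosen with earlier results of these data known, so counts over them are descriptions. Genes named are the 9 myelin genes, genes of the lists, and the 8 single-locus symbols (mean FPKM of 5 or more in each tissue) with the highest Pearson r with the mean profile. Avp, Neurod6 and Ttr were chosen after their values were seen. Genes were matched by symbol or synonym, with RefSeq names of GRCr8. Some genes of the lists are not reported here. Alternatives were pseudocounts of 0.1 and 5, other filters, 4 other scalings, summed loci, all statuses and left-out libraries. Analyses used Python 3.11.15 with pandas 2.3.3 and numpy 2.4.6.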

Additional observations from a re-analysis of the deposited data

Results flagged for a closer look

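In 6 of 71 results measured in the 4 hippocampus libraries, a library stood apart by the gap to its nearest neighbour divided by the whole range, beyond Dixon's 95% critical value. Chance flags about 1 in 20, or 3.55 of 71. Cldn11 was highest in replicate 4 (ratio 0.881), at 329 FPKM against 189 to 206. The share of Mobp in the summed myelin genes was highest in replicate 2 (ratio 0.840), at 14.8% against 13.4% to 13.6%, so the other 3 libraries were very close. The mean level of the astrocyte list was lowest in replicate 4 (ratio 0.862), where Cldn11 was highest. Bcas1, a gene of premyelinating oligodendrocytes, was lowest in replicate 3 (ratio 0.906), at 86.6 FPKM against 118 to 121. Hapln2, a link protein gene of nodes, was highest in replicate 1 (ratio 0.878), at 32.7 FPKM against 9.19 to 12.1. The transcription factor gene Nkx6-2 was also highest in replicate 1 (ratio 0.931), at 10.2 FPKM against 4.65 to 5.04.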

How the results depend on the processing

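Under 18 alternatives, Mbp and Mobp stayed higher in every hypothalamus library and Mog in every hippocampus library, and the difference of Mobp ranged from 1.08 to 1.46. Mag changed sign in 3 of them (range -0.08 to 0.46). With FPKM as deposited, 2 of the 7 genes were called higher in hypothalamus in place of 1, as Mbp reached 1.02, and the median over all symbols moved from -0.05 to 0.21. With loci summed, 1 gene in place of 2 was higher in every hippocampus library, as Cnp then overlapped. Of the 12 other lists, 5 had levels that did not overlap between tissues; the number was 10 with FPKM as deposited and 8 with upper-quartile scaling. Leaving out single libraries gave 5 to 9, the most without hypothalamus replicate 3. The median SD of the 7 genes in hypothalamus, 0.24, ranged from 0.11 to 0.29 with 1 library left out and was 0.11 without replicate 1 of both tissues; in hippocampus, 0.24, it ranged from 0.15 to 0.29. The precursor list changed sign with loci summed, from 0.16 to -0.07. No paired analysis was possible because the labels do not tie equal replicate numbers to 1 animal, and the values compared come from no test. Depth is unknown, so low values such as those of Prx have no counting limit.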

Other observations

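Vessel and immune cells of the tissue were read from lists as well. Of 6 endothelial genes, 3 were called higher in hippocampus, where 14.5% of all symbols were, and none in hypothalamus. Cldn5, a tight junction gene of brain vessels and a relative of Cldn11, read 105, 57.9, 77.9 and 52.3 FPKM in hippocampus and 53.2, 28.8 and 30.0 FPKM in hypothalamus. Its difference was -1.26 on the log2 scale, beside 0.45 for Cldn11, and its libraries overlapped in FPKM as deposited. Flt1 and Esam were also called higher in hippocampus. Of 7 microglia genes, 1 was called higher in hypothalamus, near the 13.4% of all symbols. This was C1qb, at 68.7 to 76.9 against 12.4 to 17.7 FPKM, while C1qa, which encodes a partner chain of the same complex, read 67.0 to 73.6 against 38.6 to 58.3 FPKM and overlapped once rescaled. Without the fold requirement, 3 of the 7 were higher in every hypothalamus library (24.4% of all symbols) and 1 in every hippocampus library (28.2%). The 3 were C1qb, P2ry12 with a difference of 0.56 and Csf1r with 0.43, and Csf1r overlapped with its loci summed. The 1 was Cx3cr1, a chemokine receptor gene of microglia, with a difference of -0.40.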
